A study of Rattus norvegicus with 18 samples.

Results

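The D cyclins, their partner kinases and the inhibitors of these kinases were followed in the RNA of rat dorsal root ganglia (DRG) after injury of the corticospinal tracts and after intramuscular neurotrophin-3 (NT3). The set holds 9 genes, and the count table holds 15075 RefSeq mRNAs. It comprises Ccnd1, Ccnd2 and Ccnd3 (cyclins D1, D2 and D3), Cdk4 and Cdk6 (their partner kinases), Cdkn1a, Cdkn1b and Cdkn1c (p21, p27 and p57) and Cdkn2c (p18). They were found in the table by their RefSeq gene symbol. 8 of the 9 had a row, and all 8 passed the filter on low counts (over 10 reads in 6 or more of the 12 rats compared) in every comparison. The set was chosen by a readout of the same rats, because Ccnd1 had the smallest p of all genes between bPYX+GFP and naïve rats. Its levels are therefore given as a description. No p-value is given for Ccnd1 in any comparison or for any of these genes in that contrast, and where a count of genes includes them it is a description too.

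Poly(A) RNA was sequenced from adult Lister hooded rats, 6 in each of 3 groups, with the C6-C8 DRG of the treated side pooled within each animal. Naïve rats were unoperated. Both other groups had the corticospinal tracts cut on both sides in the medullary pyramids (bPYX) and, a day later, an injection of an AAV1 vector into the forelimb flexor muscles of one side. The vector carried green fluorescent protein (bPYX+GFP) or human NT3 (bPYX+NT3) under the CMV promoter, which is active in many cell types, and the ganglia were taken 10 weeks after injury. The cut fibres run from the cortex, so the axons of DRG neurons were not cut. Naïve rats had neither the operation nor a vector, so that injury and vector cannot be told apart in a comparison with them. Groups follow the rat numbers in the heading of the count table. The count file of 17 of the 18 rats is attached to a record titled with another group, although each held the same values as the table column of that rat number. With the grouping used here, Cdkn1a had the log2 fold changes that the study printed. They were -0.45 with GFP against naïve rats and 0.49 with NT3 against GFP.

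D cyclins bind Cdk4 or Cdk6 and the complex phosphorylates the retinoblastoma protein, which releases E2F factors and lets a cell pass from G1 into S phase. Proteins of the INK4 family such as p18 bind the kinases themselves and keep the cyclin away. p21, p27 and p57 of the Cip/Kip family bind whole cyclin-kinase complexes, and p21 is a well-known transcriptional target of p53. DRG neurons do not divide, whereas Schwann cells, satellite glia, fibroblasts and immune cells of the ganglion can, and the RNA is of the whole ganglion.

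Between 10057787 and 16002410 reads per rat fell on mRNAs. The ganglion was recognisable by its markers, with 10 of 11 neuronal genes well above 0 (Nefl, the light neurofilament, at 2175 to 3042 CPM, counts scaled for depth with TMM factors over the 18 rats). Snap25, Apoe and Slc1a3 were at or near 0 in every rat (at most 0.425, 0.894 and 0.0687 CPM). Several transcripts of each were listed separately in the counting, 3 for Snap25, 5 for Apoe and 4 for Slc1a3. Rats 57 (bPYX+GFP) and 11 (bPYX+NT3) stood apart, because 31.7% and 30.8% of their reads fell on no annotated feature against 32.5 to 34.6% in the other 16 rats. Some fold changes and correlations that rest on these rats are given with and without them. Fewer cells of a type and less RNA per cell cannot be told apart in these bulk samples.

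Ccnd1 was lower in both injured groups than in naïve rats. It lay between 46.1 and 59.3 CPM in naïve rats (median 53.5), between 35.3 and 44.2 CPM in bPYX+GFP rats (median 37.1) and between 33.2 and 52.6 CPM in bPYX+NT3 rats (median 41.7). Every bPYX+GFP rat was below every naïve rat. In the bPYX+NT3 group, rats 2, 11, 23, 39 and 40 were below the naïve range and rat 17 was inside it. The log2 fold change in bPYX+GFP rats against naïve rats was -0.48 ± 0.08 (SE, n = 6 rats per group), and it stayed between -0.53 and -0.45 when each rat was left out in turn. It was -0.36 ± 0.10 with NT3 against naïve rats, and between the injured groups it was 0.12 ± 0.10, higher with NT3. Rats by which Ccnd1 was chosen enter each of these differences, so their size and steadiness are descriptions.

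The ranges of the other D cyclins overlapped between all groups. Ccnd2 had medians of 5.68, 5.45 and 5.32 CPM in naïve, bPYX+GFP and bPYX+NT3 rats, within ranges of 4.90 to 8.55, 3.71 to 6.33 and 3.82 to 7.62 CPM. Of these rats, 2 bPYX+GFP rats (52 and 57) were below every naïve rat and 2 naïve rats (42 and 45) were above every bPYX+GFP rat. Ccnd3 had medians of 8.87, 9.48 and 12.2 CPM in the same order, within ranges of 7.69 to 14.8, 6.22 to 17.1 and 7.98 to 19.7 CPM. Its highest rats were rat 42 among naïve rats, rat 57 with GFP and rat 11 with NT3, and the rest of the 3 groups overlapped.

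Of the partner kinases, Cdk6 had a lower median in both injured groups than in naïve rats, and Cdk4 had a lower median with GFP and a higher one with NT3. Cdk6 lay between 5.77 and 6.80 CPM in naïve rats, between 4.63 and 5.72 CPM in bPYX+GFP rats and between 4.19 and 6.02 CPM in bPYX+NT3 rats, with medians of 6.25, 5.15 and 4.95 CPM. The naïve and bPYX+GFP ranges did not overlap, although their nearest rats differed by little, 5.77 CPM in naïve rat 43 and 5.72 CPM in bPYX+GFP rat 52. Cdk6 was counted with 49 to 110 reads per rat, so that counting error is a larger part of its spread than for Ccnd1 with 375 to 897 reads. Cdk4 had medians of 28.9, 25.0 and 31.0 CPM, within ranges of 22.4 to 37.5, 22.99 to 36.6 and 25.1 to 44.5 CPM. All 6 bPYX+NT3 rats were above the bPYX+GFP median for Cdk4, but the groups overlapped.

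Of the inhibitors, Cdkn1a had its lowest median in bPYX+GFP rats. It lay between 4.83 and 10.2 CPM in naïve rats (median 8.40), between 5.07 and 6.80 CPM in bPYX+GFP rats (median 5.49) and between 4.45 and 11.8 CPM in bPYX+NT3 rats (median 7.60). The bPYX+GFP rats lay close together, with a coefficient of variation of 12.0%, against 27.3% in naïve and 38.6% in bPYX+NT3 rats. Naïve rats 44 and 49 and bPYX+NT3 rats 23 and 40 were as low as the bPYX+GFP rats, so that both groups held high and low rats. The study itself had listed Cdkn1a among genes that it chose on these rats, which makes its direction no independent evidence. The same holds for Plk2, Aurkb, Rcan1 and Nfil3, which are named below.

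Cdkn1b had medians of 276.6, 259.5 and 243.0 CPM in the same order. Its ranges were 248.7 to 353.8, 180.6 to 321.9 and 198.5 to 283.9 CPM, and the lowest rats were rat 57 with GFP and rat 11 with NT3, those at the top of Ccnd3 and Cdk4 in their groups. Cdkn2c had medians of 8.97, 8.78 and 8.88 CPM and lay within 6.25 to 11.4 CPM over all rats. Cdkn1c had no row in the count table, and its 3 listed transcripts were at 0 in all 18 count files. Reads shared by several listed transcripts are not assigned to any of them in such counting, and the 485 genes with 2 or more listed transcripts had a median of 22 reads over the 18 rats against 2339 reads for the 15223 genes with 1. The 0 of Cdkn1c is therefore no measure of its RNA.

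**Figure D1:**
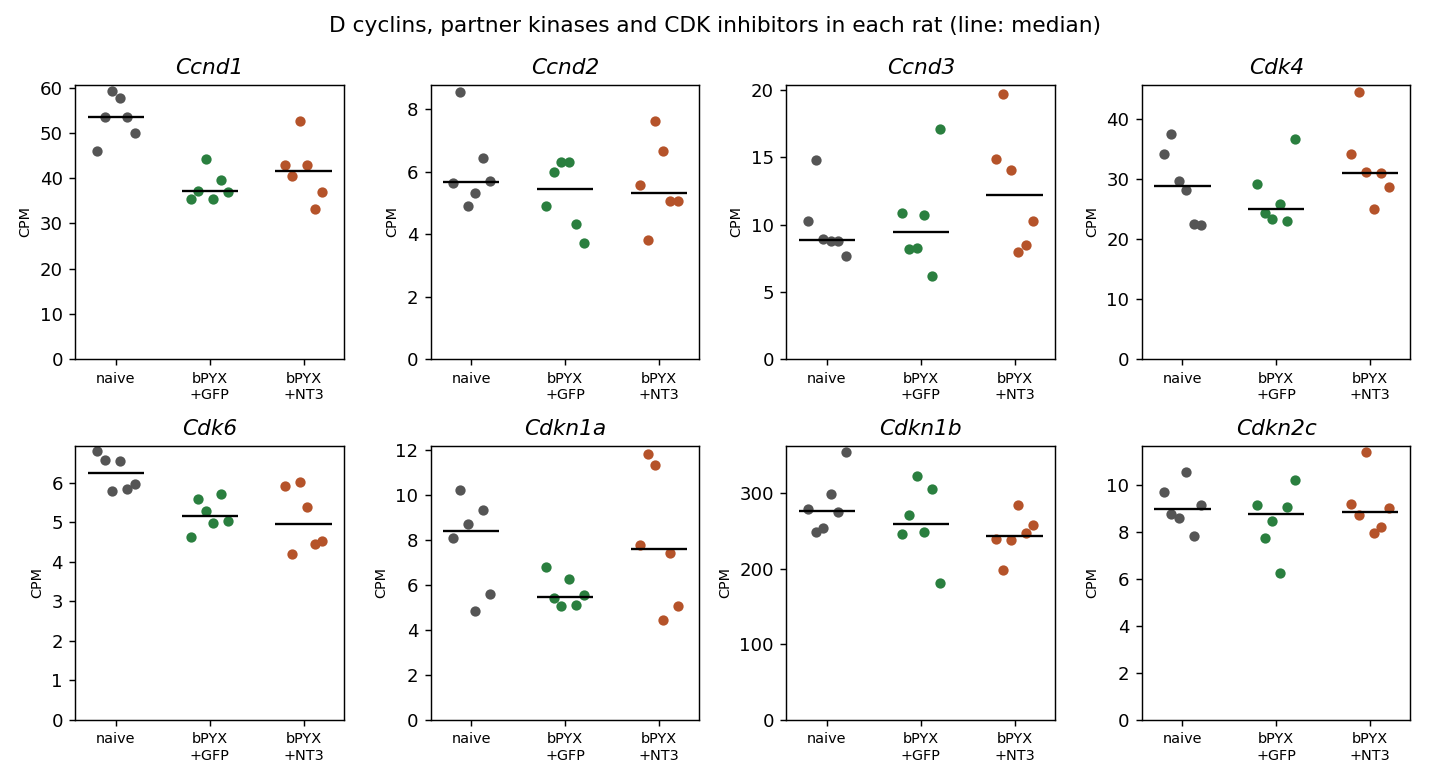
CPM of each of the 8 measured genes (vertical axis, from 0) in the 6 naïve, 6 bPYX+GFP and 6 bPYX+NT3 rats, 1 point per rat in order of rat number, with the group median as a line. The bPYX+GFP rats lie below every naïve rat for Ccnd1 and Cdk6, whereas the ranges of all groups overlap for the other 6 genes.

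Between bPYX+GFP and naïve rats, which shows the response to injury with a control vector, the fitted difference was below 0 for 7 of the 8 genes and above 0 for Ccnd3. The log2 fold change was -0.26 ± 0.10 for Cdk6, -0.45 ± 0.18 for Cdkn1a and -0.21 ± 0.17 for Ccnd2. It was -0.12 ± 0.12 for Cdkn1b, -0.09 ± 0.15 for Cdk4, -0.09 ± 0.13 for Cdkn2c and 0.06 ± 0.23 for Ccnd3. Without rat 57 it was -0.16 for Ccnd3, below 0 as for the other genes, -0.21 for Cdk4 and -0.03 for Cdkn1b. A nominal p (before adjustment, edgeR quasi-likelihood test) below 0.05 was found for 3 of the 8 genes (Ccnd1, Cdk6 and Cdkn1a), against 3.25% of the 11601 genes tested (2.52% with a lower level after injury), but this contrast chose the set and nothing is read from that count. No gene of the 11601 had an adjusted p under 0.05, the smallest being 0.201, and 377 genes had a nominal p below 0.05. Other tools gave adjusted p-values under 0.05 for 16 genes (DESeq2) and 13 genes (edgeR's likelihood ratio test). Groups did not overlap for Ccnd1 and Cdk6, 2 of the 8 genes, and for 0.267% of all genes tested, and nothing is read from that count either. The median log2 fold change of the 8 genes was -0.16 beside 0.01 over all genes.

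Between bPYX+NT3 and naïve rats, which compares injured and treated rats with unoperated ones, Cdk6 and Cdkn1b, of the genes other than Ccnd1, had a nominal p below 0.05, both with a lower level. Cdk6 had a log2 fold change of -0.30 ± 0.12 (adjusted p = 0.607; exact two-sided permutation p = 0.0195), and all 6 bPYX+NT3 rats were below the naïve median. Cdkn1b had a log2 fold change of -0.22 ± 0.10 (adjusted p = 0.607; exact permutation p = 0.0476), with 5 of 6 rats below the naïve median. These are 2 of the 7 genes other than Ccnd1, against 6.01% of the 11693 genes tested (2.92% with a lower level), and no gene tested had an adjusted p under 0.05 in edgeR or DESeq2. The share of 6.01% was 3.14% without rat 11 and 11.9% without rat 23. The naïve rats of this comparison are those that chose the set. None of the 8 genes had groups that did not overlap, against 0.257% of all genes.

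Neither of these values held without every rat. The nominal p of Cdk6, 0.0291 with all rats, was 0.0508 to 0.0635 without rat 41, 42, 44, 11, 39 or 40. That of Cdkn1b, 0.0359, was 0.0587 to 0.0929 without rat 44, 49, 2, 11 or 17. It was 0.0755 in 1 fit over the 3 groups, and that of Cdk6 was 0.0565 with library size alone in place of TMM. Without rat 11 alone, the log2 fold changes were -0.25 for Cdk6 and -0.17 for Cdkn1b. The other 5 genes had adjusted p-values of 0.607 or more in this comparison, with log2 fold changes of 0.35 ± 0.22 for Ccnd3, 0.16 ± 0.15 for Cdk4, -0.12 ± 0.18 for Ccnd2, 0.03 ± 0.25 for Cdkn1a and 0.00 ± 0.11 for Cdkn2c. The exact permutation p was 0.258 for Ccnd3, and without naïve rat 42 its log2 fold change was 0.51 with a nominal p of 0.0376. Without bPYX+NT3 rat 11 it was 0.17 with a nominal p of 0.396.

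Between bPYX+NT3 and bPYX+GFP rats, which shows what NT3 added after injury, none of the 8 genes had a nominal p below 0.05, against 1.73% of the 11623 genes tested, and no gene tested had an adjusted p under 0.05 in edgeR or DESeq2. Cdkn1a had the largest difference, a log2 fold change of 0.49 ± 0.23 (nominal p = 0.0512; adjusted p = 0.851; exact permutation p = 0.152), and 4 of 6 NT3 rats were above the bPYX+GFP median. Without rat 5, 23 or 40 its nominal p was 0.0114 to 0.0476. Without rat 11, the highest of all rats for Cdkn1a, its log2 fold change was 0.33.

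Cdk4 and Ccnd3 were higher with NT3 by log2 fold changes of 0.26 ± 0.15 and 0.29 ± 0.27, with an adjusted p of 0.851 for each and exact permutation p-values of 0.119 and 0.314. Leaving out bPYX+GFP rat 57 raised these to 0.37 and 0.51, both then with a nominal p below 0.05 (0.0130 and 0.0492), in a fit where 19.8% of all genes had a nominal p below 0.05. Leaving out bPYX+NT3 rat 11 lowered them to 0.14 and 0.11. Without both rats, the log2 fold change of Cdk4 was 0.26, again with a nominal p below 0.05 (0.0164), and 12.7% of all genes had a nominal p below 0.05. The remaining genes other than Ccnd1 lay between -0.11 ± 0.12 for Cdkn1b and 0.10 ± 0.13 for Cdkn2c, with adjusted p-values of 0.851 to 0.920. None of the 8 genes had groups that did not overlap, against 0.0516% of all genes. Each pair of comparisons shares 6 rats, so their fold changes are not independent of each other.

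**Figure D2:**
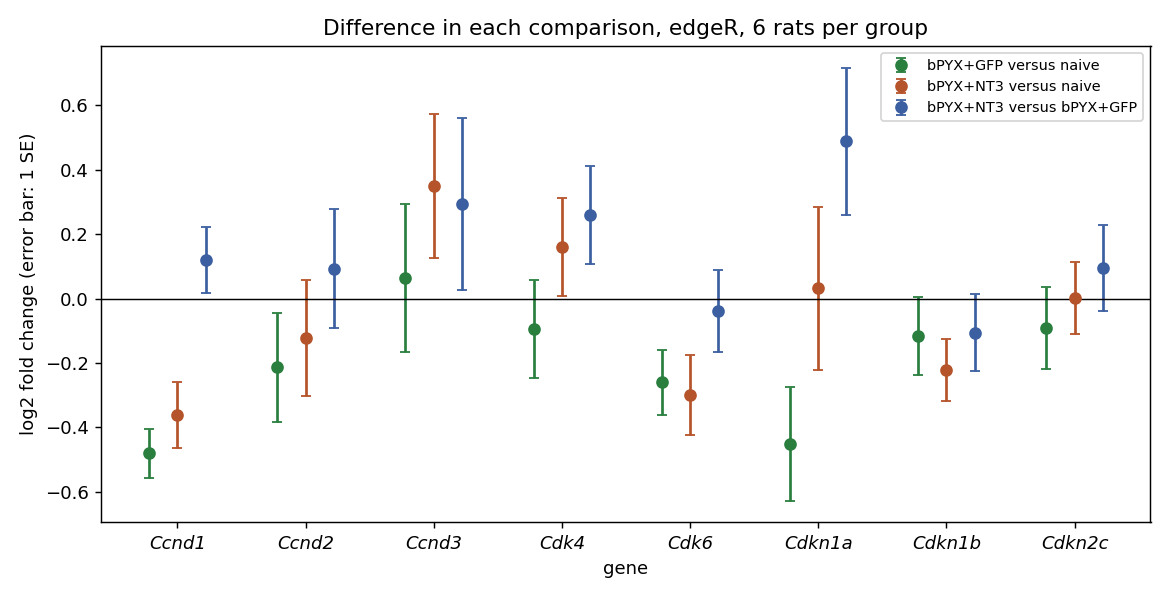
Log2 fold change (vertical axis) of the 8 measured genes in the 3 comparisons, with 1 SE as the error bar and 6 rats per group. Ccnd1 and Cdk6 lie below 0 in both comparisons with naïve rats, and Cdkn1a lies below 0 with GFP (-0.45) but near 0 with NT3 (0.03) against naïve rats.

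Across the 18 rats, Ccnd1 varied most closely with Cdk6, and Ccnd3 with Cdk4. Pearson's r of log2 CPM was 0.74 between Ccnd1 and Cdk6 and 0.87 between Ccnd3 and Cdk4, the 2 highest of the 28 pairs, whereas it was -0.04 between Ccnd1 and Cdk4 and -0.20 between Ccnd3 and Cdk6. Cdkn1b ran against the latter pair, with r = -0.84 to Ccnd3 and -0.78 to Cdk4. Cdkn1a went with it, at 0.60 to Ccnd3 and 0.59 to Cdk4. The value for Ccnd1 with Cdk6 includes the group difference that chose the set. After the group means were subtracted, r was 0.51 for this pair, as for Ccnd2 with Cdk6 (0.51) and below Ccnd3 with Cdkn1a (0.63) and Cdk4 with Cdkn1a (0.56). It was 0.87 for Ccnd3 with Cdk4 and -0.84 for Ccnd3 with Cdkn1b. Without rats 11 and 57, group means kept, r was 0.78 for Ccnd1 with Cdk6 and 0.78 for Ccnd3 with Cdk4. For Ccnd3 with Cdkn1b it was then -0.71, and for Ccnd2 with Cdk6 0.36. For Ccnd2 with Ccnd3 it was 0.53 without these rats and -0.13 with all rats. These values are descriptions, since all genes share the library and its depth in each rat.

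**Figure D3:**
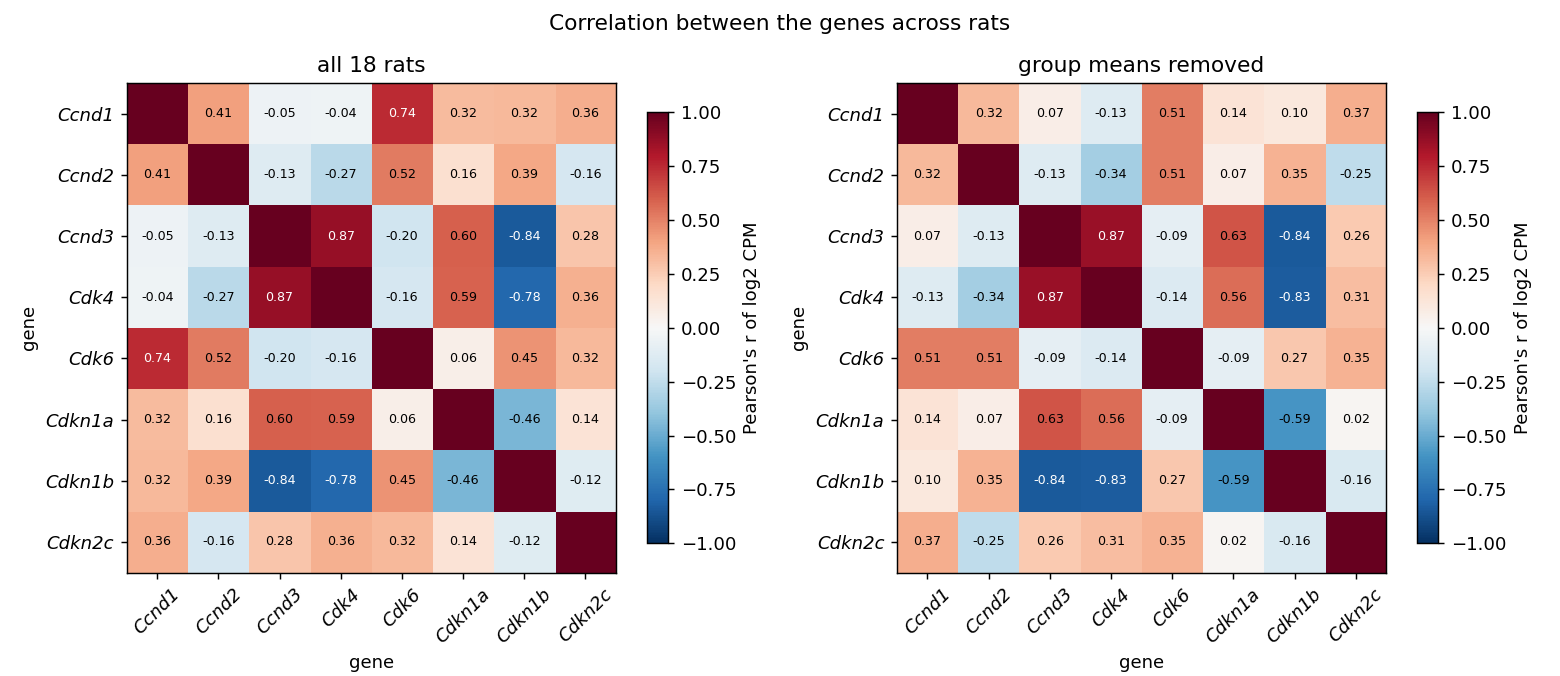
Pearson's r of log2 CPM for each pair of the 8 measured genes over the 18 rats, as measured (left) and after subtracting the mean of each group (right), on a scale from -1 to 1. Ccnd3, Cdk4 and, with the opposite sign, Cdkn1b keep values of 0.83 or more in size with group means removed, whereas Ccnd1 with Cdk6 goes from 0.74 to 0.51.

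The Ccnd3, Cdk4 and Cdkn1b levels moved with the share of reads on no feature, and the Ccnd1 level did not to a like degree. Over the 18 rats r with this share was -0.84 for Ccnd3, -0.91 for Cdk4 and 0.85 for Cdkn1b, and 0.17 for Ccnd1, 0.31 for Cdk6 and -0.53 for Cdkn1a. Without rats 11 and 57 it was -0.69, -0.87 and 0.72 for the first 3 genes and -0.01 for Ccnd1. For Cdk6 it was then -0.16 and for Cdkn1a -0.60. Such a relation was common in these libraries, as 27.7% of the 11543 genes tested in every comparison had a larger r in size than Ccnd3, 11.5% than Cdk4 and 89.6% than Ccnd1. With the share as a covariate, the log2 fold change of NT3 against GFP was 0.05 for Ccnd3 and 0.11 for Cdk4. That of Cdkn1a was 0.31 in the same fit. For NT3 against naïve rats the covariate moved Ccnd3 from 0.35 to 0.08, Cdk4 from 0.16 to -0.02 and Cdkn1a from 0.03 to -0.22. It moved Cdkn1b from -0.22 to -0.12, where its nominal p was 0.0569. The log2 fold change of Cdk6 was -0.28 in the same fit, and that of Ccnd1 between bPYX+GFP and naïve rats was -0.48. The medians of the share were 33.6% in naïve rats, 33.7% with GFP and 33.1% with NT3.

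**Figure D4:**
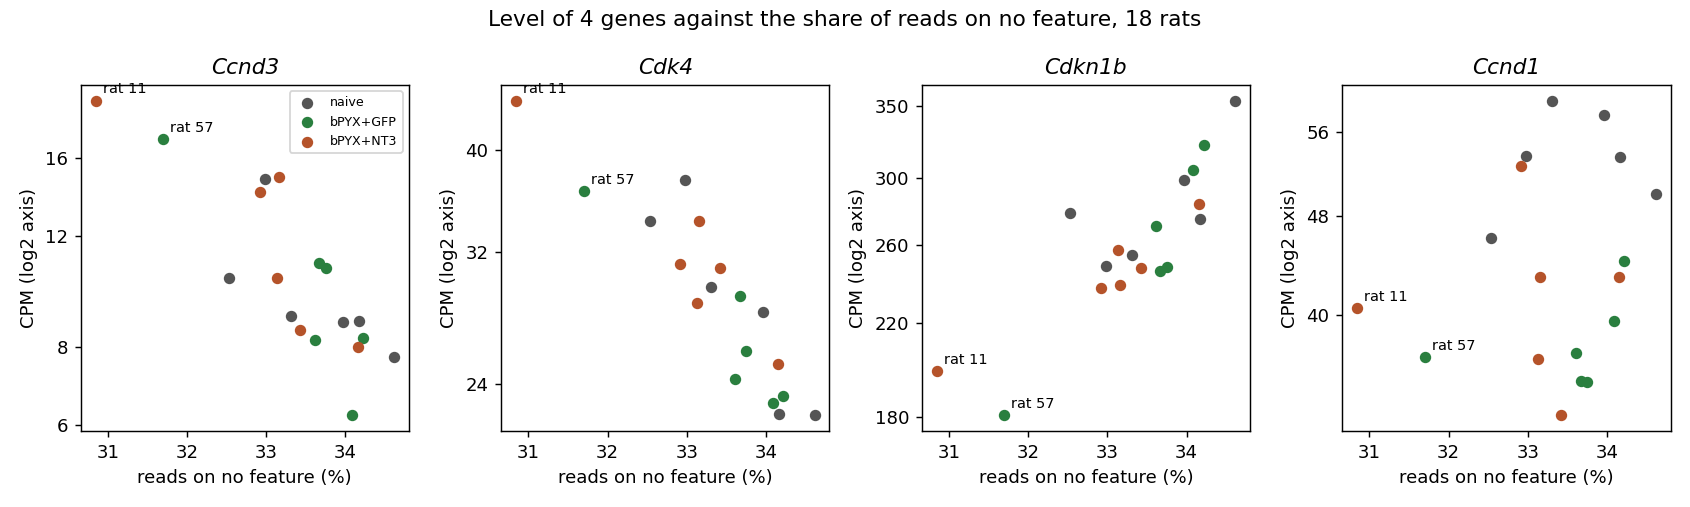
CPM on a log2 axis against the percentage of reads on no feature in each of the 18 rats, coloured by group, with rats 11 and 57 named. Ccnd3 and Cdk4 fall and Cdkn1b rises along the axis (r = -0.84, -0.91 and 0.85), while for Ccnd1 the naïve rats lie above most others at any share (r = 0.17).

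Promoters are shown for 3 genes that moved with or against each other across rats and for Cdkn1a, the p53 target of the set. They are the 250 bases before the start of the gene in RefSeq on GRCr8, 5′ to 3′ along the gene. The build differs from that of the counts, and 5 of the 9 genes (Ccnd3, Cdk4, Cdkn1a, Cdkn1b and Cdkn2c) matched an entry. Ccnd3 lies at chr9:20897876-20898125 on the minus strand, Cdk4 at chr7:64771203-64771452 on the plus strand, Cdkn1b at chr4:169491254-169491503 on the plus strand and Cdkn1a at chr20:7150682-7150931 on the plus strand. Capitals mark matches on either strand to the GC box GGGCGG, the CCAAT box CCAAT, the E2F element TTTNNCGC, the E-box CACGTG, the core of the cAMP response element TGACG, and the p53 decamer. No match overlapped another.
Ccnd3: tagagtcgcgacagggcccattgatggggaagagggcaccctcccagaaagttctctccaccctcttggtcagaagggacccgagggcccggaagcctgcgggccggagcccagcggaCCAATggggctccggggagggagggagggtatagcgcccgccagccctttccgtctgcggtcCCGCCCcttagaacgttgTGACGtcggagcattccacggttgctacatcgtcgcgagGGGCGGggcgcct
Cdk4: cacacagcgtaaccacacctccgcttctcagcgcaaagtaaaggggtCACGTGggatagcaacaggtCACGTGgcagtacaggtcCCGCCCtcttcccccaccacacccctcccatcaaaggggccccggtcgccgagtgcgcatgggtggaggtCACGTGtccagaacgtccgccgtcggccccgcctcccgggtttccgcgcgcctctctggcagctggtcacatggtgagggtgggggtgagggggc
Cdkn1b: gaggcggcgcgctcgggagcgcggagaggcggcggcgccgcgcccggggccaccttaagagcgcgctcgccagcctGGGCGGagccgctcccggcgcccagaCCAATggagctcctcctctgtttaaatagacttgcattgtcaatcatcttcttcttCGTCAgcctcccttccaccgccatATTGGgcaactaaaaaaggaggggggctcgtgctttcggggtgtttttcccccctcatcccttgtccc
Cdkn1a: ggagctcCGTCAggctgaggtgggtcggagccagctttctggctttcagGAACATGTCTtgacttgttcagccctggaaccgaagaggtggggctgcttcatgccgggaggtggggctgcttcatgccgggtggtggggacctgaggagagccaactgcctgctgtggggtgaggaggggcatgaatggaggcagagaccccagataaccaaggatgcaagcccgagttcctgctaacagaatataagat
The promoters of Ccnd3 and Cdk4, whose RNAs ran in parallel, shared a GC box, with 2 matches in Ccnd3 and 1 in Cdk4, against 30.5% of 33469 promoters of this length with any match. Cdkn1b, which ran against them, also held 1. Cdk4 alone of the 4 held the E-box, in 3 copies at 203, 183 and 95 bases before the start, and 5.59% of all promoters held any. Cdkn1a held a p53 decamer that began 201 bases before the start, a match found in 6.64% of promoters. No match to the E2F element was found in these 4 windows, and 4.11% of promoters held one. The 4 windows had 58.8 to 67.2% G or C, against a median of 51.2% over all promoters. A match is a match of letters and was not tested for any role in these data.

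The genes most like Ccnd1 over the 18 rats, of 11542 others, were Spry2 (an antagonist of receptor tyrosine kinase signalling, r = 0.88), Sntb1 (a syntrophin, 0.87), Map4k4 (a kinase, 0.86), Lamc1 (the laminin gamma 1 chain, 0.85) and Mboat1 (an acyltransferase, 0.85). With group means subtracted r was 0.82 for Spry2 and 0.61 to 0.71 for the other 4. The most opposite were NM_001258011, which had no symbol (r = -0.87), Arih2 (-0.78) and Ak5 (-0.74). The genes most like Cdkn1a were Ccl22 (a chemokine, r = 0.87), Rcan1 (a calcineurin regulator, 0.86), Nfil3 (a transcription factor, 0.84), Tgm2 (a transglutaminase, 0.84) and Get1 (0.83). With group means subtracted r was 0.80 to 0.86 for these genes. The genes like Ccnd1 and like Cdkn1a were picked by their r on these same rats. Their high values therefore follow in part from the choice and are descriptions. The most opposite were Nr1d2 (a nuclear receptor of the circadian clock, r = -0.84), Mrs2 (-0.82) and Tmem255a (-0.80).

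Genes that act around the D cyclins were counted beside the shares of all genes with a nominal p below 0.05, which were 3.25%, 6.01% and 1.73% in the 3 comparisons in the order above. Of the 22 tested genes of the G1/S machinery, 1 had a nominal p below 0.05 with GFP against naïve rats, 2 with NT3 against naïve rats and 0 between the injured groups, where no gene of any list had an adjusted p under 0.05 either. The 1 gene with GFP was Cdkn2b (p15, another INK4 inhibitor), with a median of 19.4 CPM against 22.7 CPM in naïve rats (log2 fold change -0.26 ± 0.11). With NT3 these were Ccne2 (cyclin E2), at 38.9 against 45.1 CPM (-0.28 ± 0.12), and E2f4 (a repressive E2F factor), at 16.1 against 14.3 CPM (0.27 ± 0.12). Rb1, which encodes the retinoblastoma protein, had log2 fold changes of -0.07 ± 0.10, -0.18 ± 0.11 and -0.10 ± 0.12 in the 3 comparisons in that order. The list's median log2 fold changes were 0.01, -0.06 and -0.04, beside 0.01, 0.00 and 0.00 over all genes.

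Of the 12 tested p53 target genes other than Cdkn1a, 1 had a nominal p below 0.05 in each comparison, beside the same shares of all genes. Plk2 (a stress-induced polo-like kinase) had a median of 65.4 CPM in naïve rats, 55.6 CPM with GFP and 62.3 CPM with NT3. Its log2 fold change was -0.29 ± 0.08 with GFP against naïve rats (adjusted p = 0.822) and 0.24 ± 0.10 with NT3 against GFP (adjusted p = 0.851). The study had listed Plk2 too among genes chosen on these rats. Sesn2 (a stress-induced regulator of mTORC1) had 6.89 CPM with NT3 against 4.90 CPM in naïve rats (0.44 ± 0.18, adjusted p = 0.607). Mdm2 and Ccng1, both well-known p53 targets, had log2 fold changes between -0.10 and -0.01 in all 3 comparisons.

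Of the 15 tested proliferation markers, 3 had a nominal p below 0.05 with GFP against naïve rats, beside 3.25% of all genes, and 13 of the 15 had a fitted difference below 0. The list's summed level had nearly the same median in both groups, 218.3 CPM with GFP and 218.1 CPM in naïve rats, and its highest value was 292.8 CPM in a naïve rat. The 3 genes with a nominal p below 0.05 were Aurkb and Ccnb2 of mitosis and Rrm2 of nucleotide synthesis. Aurkb, a gene of few reads, had medians of 1.56 CPM in naïve, 0.799 CPM in GFP-treated and 1.40 CPM in NT3-treated rats (log2 fold change -0.94 ± 0.38 with GFP against naïve rats, and 0.74 ± 0.26 with NT3 against GFP). Rrm2 had medians of 16.6, 13.4 and 13.4 CPM (-0.40 ± 0.17 with GFP and -0.36 ± 0.14 with NT3, each against naïve rats). Its highest naïve rat had 25.8 CPM. Ccnb2, also a gene of few reads, had a median of 2.46 CPM with GFP against 2.89 CPM in naïve rats (-0.57 ± 0.24). Its ranges were 1.58 to 2.64 CPM with GFP and 2.07 to 5.84 CPM in naïve rats. Mki67, the Ki-67 antigen, had log2 fold changes of -0.37 ± 0.23 with GFP and -0.42 ± 0.24 with NT3 against naïve rats. Its medians were close, 21.2 CPM in naïve rats, 21.2 CPM with GFP and 20.0 CPM with NT3, and the highest naïve rat had 51.5 CPM. The median log2 fold changes of the list were -0.14, -0.06 and 0.13 in the 3 comparisons. The count with GFP was 5 over the 3 lists together, and 2 without rat 42, 44, 5, 18 or 57, 3 without rat 45 and 8 without rat 49. With NT3 against naïve rats it was 4, and 1 without rat 45, 2 or 11, 2 without rat 44 or 49 and 8 without rat 23. Between the injured groups it was 2, and 1 without rat 5 or 17 and 7 without rat 57. Beside these counts, the share of all genes with a nominal p below 0.05 was 19.8% between the injured groups without rat 57. It was 11.9% with NT3 against naïve rats without rat 23, and 3.11% with GFP against naïve rats without rat 49.

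**Figure D5:**
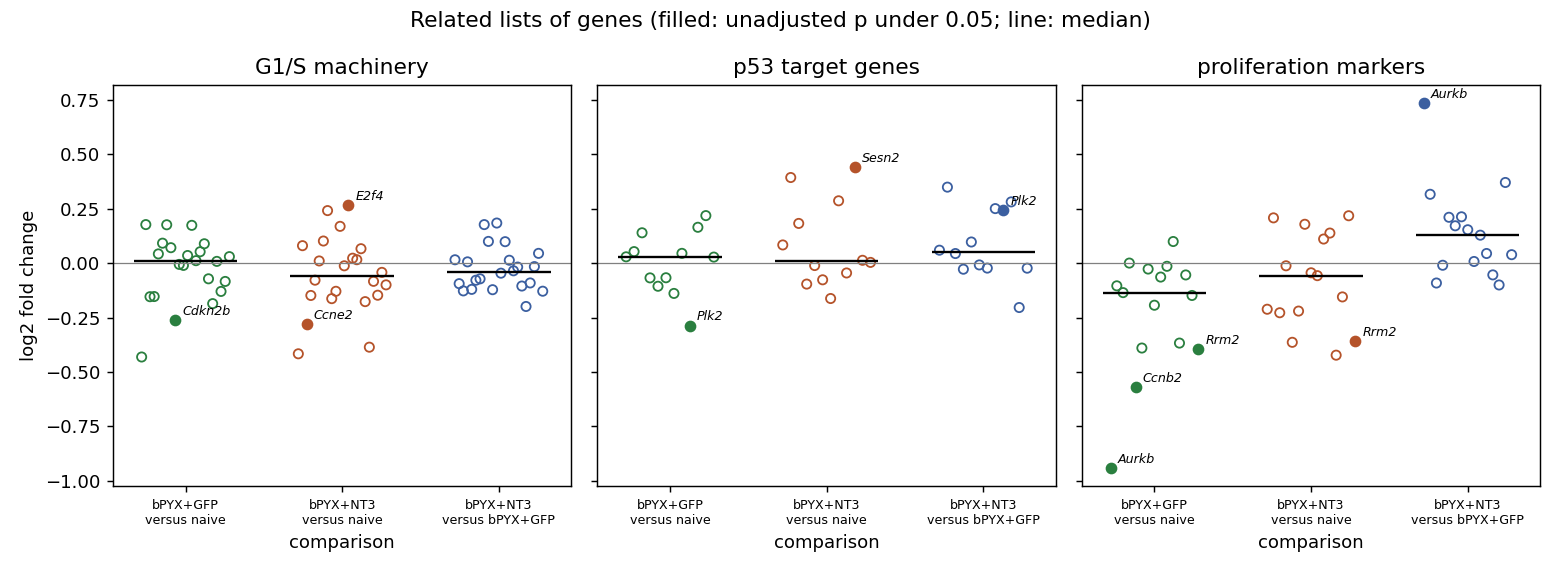
Log2 fold change (vertical axis) of each tested gene of 3 lists in the 3 comparisons, in alphabetical order within each column of points, with the median as a line and genes with a nominal p below 0.05 filled and named. Medians of the G1/S machinery and p53 target genes lie within 0.06 of 0, and that of the proliferation markers goes from -0.14 with GFP against naïve rats to 0.13 with NT3 against GFP.

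Markers of some non-neuronal cells also had lower values in the injured groups, beside Ccnd1. All 7 genes of the myelinating Schwann cell list had a lower mean with GFP than in naïve rats. Of these, 3 had a nominal p below 0.05 (Pmp2, Pmp22 and Egr2), beside 3.25% of all genes. Mbp of this list had 6 transcripts listed separately and 867 reads over the 18 rats, so its value is a poor measure of its RNA. The list's summed level was 2139 to 3121 CPM with GFP, 2573 to 3123 CPM with NT3 and 2614 to 4077 CPM in naïve rats. Of the fibroblast and meninges list, all 5 tested genes had a lower mean with GFP and 3 had a nominal p below 0.05 (Col1a1, Col3a1 and Lum), with summed levels of 2022 to 2646, 1620 to 2845 and 2210 to 2982 CPM in the same order of groups. The satellite glia list summed to 1744 to 2284, 1719 to 2181 and 2128 to 2440 CPM. The 10 tested neuronal genes all had a higher mean with GFP, none with a nominal p below 0.05, and summed to 14180 to 16320 CPM with GFP, 13176 to 16686 CPM with NT3 and 13060 to 15327 CPM in naïve rats.

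Over the 18 rats, log2 CPM of Ccnd1 had r = 0.56 with the summed Schwann cell list, 0.56 with satellite glia, 0.52 with fibroblasts and meninges and -0.49 with neurons. With group means subtracted these were 0.07, 0.37, 0.25 and -0.32. The r of Ccnd1 with the endothelial and macrophage lists was -0.11 and 0.30, and 0.38 and 0.34 with group means subtracted. For Cdkn1a the highest r was with the macrophage list, at 0.56 and 0.55. That list summed to 43.6 to 84.1 CPM with GFP, 52.8 to 124.3 CPM with NT3 and 56.5 to 113.8 CPM in naïve rats, and its 6 genes were all detected. The endothelial list summed to 175.8 to 198.3, 157.6 to 235.2 and 155.6 to 206.1 CPM in that order, and the adipocyte and skeletal muscle lists reached at most 78.5 and 5.22 CPM in any rat. The part of these cells in the levels of the D cyclin genes was not tested.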

How the data were processed

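Poly(A) RNA of the C6-C8 DRG of 18 rats, 6 per group, was analysed. Per the labels and the study's methods, the authors used bcl2fastq 1.8.4, TopHat2 (Rnor_6.0), Picard to remove duplicates and HTSeq, and deposited whole-number counts of reads per RefSeq mRNA, not normalized. Of the 15075 mRNAs, 14193 matched a RefSeq symbol. HTSeq rows that name no gene (no feature, 30.8 to 34.6% of reads; ambiguous, 2.79 to 3.41%; not unique, 19.0 to 22.3%) entered neither library sizes nor tests. Depth was 10057787 to 16002410 counts per rat, so counting error is large for genes near 10 reads.

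Groups were compared in pairs in R 4.3.3 with edgeR 4.0.16 (TMM, quasi-likelihood F test, no covariate), over genes with over 10 reads in 6 or more of 12 rats. P-values were adjusted by Benjamini-Hochberg over every gene tested. SE is the fold change divided by the root of F. CPM were scaled by TMM over 18 rats. For 14 comparisons of single genes, exact permutation tests (two-sided) of log2 CPM with a prior count of 2 were added, whose smallest possible p is 0.00216. Alternatives used DESeq2 1.42.0 and other settings. A test on simulated data for bPYX+GFP against naïve rats altered 200 genes by a log2 fold change of 1. Of these, 88% were recovered, with 7 false calls among 11616 genes. Smaller changes were not tested in this way. The largest log2 fold change of the set in that comparison was -0.48, for Ccnd1, so the 88% does not give the recovery of such differences. Other steps used scipy 1.17.1, numpy 2.4.6, pandas 2.3.3 and matplotlib 3.10.9 in Python 3.11.15.

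The set of genes and the lists were chosen with earlier results of these data known. Genes named are all 9 of the set, up to 6 per list and comparison with the smallest nominal p below 0.05, and the 5 highest and 3 lowest in r with Ccnd1 and with Cdkn1a. Rb1, Mdm2, Ccng1 and Mki67 and the markers named were added after their values were seen.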

Additional observations from a re-analysis of the deposited data

Results flagged for a closer look

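Within a group of 6 rats, 1 rat stood apart from the rest in 8 of 102 ends of ranges examined, by the gap to its neighbour as a share of the whole range (Dixon's ratio, above its critical value for 6 values). By chance about 1 group in 20 has such a rat at either end, which is a rate per group and not per end. For Ccnd3, naïve rat 42 had 14.8 CPM, with the next rat at 10.3 CPM (ratio 0.638). For Cdkn2c, bPYX+NT3 rat 17 had 11.4 CPM, with the next rat at 9.21 CPM (ratio 0.645). The share of reads on no feature was 31.7% in bPYX+GFP rat 57, with the next rat at 33.6% (ratio 0.760), and 30.8% in bPYX+NT3 rat 11, with the next rat at 32.9% (ratio 0.626).

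The other 4 were summed cell type markers. bPYX+NT3 rat 17 had the highest macrophage sum of its group, 124.3 CPM with the next rat at 79.1 CPM (ratio 0.632), and the highest adipocyte sum, 13.3 CPM with the next at 5.75 CPM (ratio 0.663). It was also the bPYX+NT3 rat with the highest Ccnd1, 52.6 CPM. bPYX+GFP rat 5 had an adipocyte sum of 78.5 CPM with the next rat at 24.8 CPM (ratio 0.705). bPYX+GFP rat 57 had a skeletal muscle sum of 5.22 CPM with the next rat at 2.28 CPM (ratio 0.671).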

How the results depend on the processing

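The log2 fold change of Ccnd1 with GFP against naïve rats kept its sign in every fit, and was -0.48 in the main fit, -0.53 to -0.45 with each rat left out, and -0.035 with the groups of the recorded titles. Ccnd1 was chosen by this comparison, so these values are descriptions. With the groups of the titles, 0 of the 8 genes had a nominal p below 0.05 with GFP or with NT3 against naïve rats, against 1.49% and 2.85% of all genes. In these fits the sign turned for 4 of the 8 genes with GFP, for 6 with NT3 against naïve rats and for 6 between the injured groups. Among these were Cdk6 with GFP (0.044) and Ccnd1 (0.23), Cdk6 (0.14) and Cdkn1b (0.14) with NT3 against naïve rats. The counts of the 8 genes include Ccnd1, which the choice of the set fixed with GFP against naïve rats, and are descriptions there. With each rat left out, the count was 2 to 3 with GFP (2 without rat 5, 42 or 45) and 1 to 3 with NT3 against naïve rats, and 0 to 2 between the injured groups. Between the injured groups it was 1 (Cdkn1a) with the likelihood ratio test, DESeq2, library size alone, no filter or 1 fit over the 3 groups. Of all genes, 1.58%, 1.82%, 1.79%, 2.11% and 2.25% had a nominal p below 0.05 in these fits, in that order. Without rats 11 and 57, an alternative chosen after seeing the data, the count of the 8 genes was 1 with NT3 against naïve rats and 1 between the injured groups. The count over the pathway lists, 5, 4 and 2 genes in the main fits, was 2 to 8, 1 to 8 and 1 to 7 with each rat left out, and 2, 1 and 5 without rats 11 and 57. The share of all genes with a nominal p below 0.05 moved as well. It was 2.35 to 5.16%, 3.14 to 11.9% and 0.822 to 19.8% with each rat left out. Without rats 11 and 57 it was 5.16%, 3.14% and 12.7%. Of the 14 exact tests, 2 had a p below 0.05 with a prior count of 2 or of 0.5. The cause of these changes was not tested.

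The replicate block, also chosen after seeing the data, used the number in the titles, which says nothing of a shared animal or day. Rats of the same number deviated together in some pairs and not in others (r from -0.40 to 0.53 over the 3 comparisons). Between NT3 and naïve rats r was -0.30 for number 3 and 0.29 to 0.53 for the other numbers. Whether the numbers pair the rats was not tested. In that paired fit the count of the 8 genes was 1 with GFP against naïve rats (Ccnd1, by which the set was chosen), 4 with NT3 against naïve rats and 0 between the injured groups, and the pathway lists had 6, 14 and 2. Of all genes, 25.3% had a nominal p below 0.05 in the paired fit of NT3 against naïve rats. The share was 2.72% in that of GFP against naïve rats and 1.12% in that between the injured groups. Depth limits Cdkn1a, Ccnd2 and Cdk6 most, with as few as 48, 44 and 49 reads in a rat.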
